A study of Mus musculus with 126 samples.

Results

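Enzymes that attach glutathione, glucuronic acid or sulfate to small molecules were followed in mouse colon over the day. The glutathione S-transferases (Gst genes and the membrane-bound Mgst genes), the UDP-glucuronosyltransferases (Ugt) and the sulfotransferases (Sult) were taken by symbol. A gene was kept where its mean was 0.5 FPKM (fragments mapped to a gene, scaled to transcript length and to the mapped total of the library) or more in at least 1 of the 7 deposited tables. Of 64 rows with such a symbol 39 were kept: 20 of 21 Gst, 3 of 3 Mgst, 11 of 21 Ugt and 5 of 19 Sult genes, among 24883 rows in all. All 39 were among the 12439 rows tested, which had to reach the same mean. Just inside the limit were Gsto2 with 0.540, Ugt1a10 with 0.606 and Ugt8a with 1.356 FPKM in their highest table, each over the limit in 1 table alone. Just outside were Ugt1a2 with 0.300, Ugt1a5 with 0.263 and Ugt1a9 with 0.253 FPKM.

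The series holds RNA libraries of colon in 7 conditions, 18 libraries each. Colons were sampled every 4 h from ZT0 to ZT20, 6 times in all with 3 libraries per time (zeitgeber time, ZT, counts from lights on). Freely fed mice on normal chow were Bmal1 knock out, MR knock out (mineralocorticoid receptor, the gene Nr3c2) and wild type, the knock out mice 8 to 12 weeks old. The Bmal1 deletion is described as gut-specific, and the description does not say so of the MR deletion. The Cre driver, the alleles, and the age and sex of the wild type mice were not found in the labels or the design text. Male C57BL/6 mice 8 weeks old under 12 h light and 12 h dark received a high or a low salt diet, each fed by day alone or by night alone, which makes 4 groups, named here by diet and feeding time. Bmal1 (Arntl) is the core activator of the circadian clock, and the mineralocorticoid receptor is the receptor for aldosterone.

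Conjugation makes lipophilic drugs, dietary chemicals, bile pigments and hormones more water-soluble, so that they can be pumped out of the cell. Gst enzymes in the cytosol and Mgst enzymes in membranes use glutathione, Ugt enzymes of the endoplasmic reticulum use UDP-glucuronic acid, and cytosolic Sult enzymes use the sulfate donor PAPS. The gut epithelium meets many of these compounds first, and several of the genes are known targets of the factors NFE2L2 (through antioxidant response elements), AHR (through xenobiotic response elements) and HNF1.

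Promoter windows of 300 bases, 250 before and 50 after the transcript start (RefSeq, GRCm38.p6), were found for 36 of the 39 members, 47 windows in all. Shown are the 3 members that hold a HNF1 motif, and Gsta3 and Mgst1, which hold an antioxidant response element and are described in detail among the results. Capitals mark the HNF1 motif in Ugt1a1, Ugt1a10 and Sult1d1, a xenobiotic response element in Sult1d1 nearer to the start, and the antioxidant response element in Gsta3 and Mgst1.
Ugt1a1, chr1:88211709-88212008, + strand: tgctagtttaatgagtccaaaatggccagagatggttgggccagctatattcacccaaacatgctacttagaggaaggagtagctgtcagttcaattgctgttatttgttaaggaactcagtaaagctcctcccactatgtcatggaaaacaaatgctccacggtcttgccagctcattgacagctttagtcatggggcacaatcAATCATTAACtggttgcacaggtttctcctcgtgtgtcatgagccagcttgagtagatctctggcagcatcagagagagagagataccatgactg
Ugt1a10, chr1:88055161-88055460, + strand: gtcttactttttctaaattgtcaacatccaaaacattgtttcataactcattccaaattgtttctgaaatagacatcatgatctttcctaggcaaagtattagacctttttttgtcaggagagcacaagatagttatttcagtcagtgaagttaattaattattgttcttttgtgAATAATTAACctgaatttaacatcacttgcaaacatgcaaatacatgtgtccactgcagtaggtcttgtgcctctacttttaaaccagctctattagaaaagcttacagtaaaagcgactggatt
Sult1d1, chr5:87568957-87569256, - strand: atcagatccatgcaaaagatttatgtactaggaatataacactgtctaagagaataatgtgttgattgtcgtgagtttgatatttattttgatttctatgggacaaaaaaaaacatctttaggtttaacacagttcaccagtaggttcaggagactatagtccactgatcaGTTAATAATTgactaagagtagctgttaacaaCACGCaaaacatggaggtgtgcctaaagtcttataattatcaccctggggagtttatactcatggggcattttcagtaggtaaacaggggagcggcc
Gsta3, chr1:21240335-21240634, + strand: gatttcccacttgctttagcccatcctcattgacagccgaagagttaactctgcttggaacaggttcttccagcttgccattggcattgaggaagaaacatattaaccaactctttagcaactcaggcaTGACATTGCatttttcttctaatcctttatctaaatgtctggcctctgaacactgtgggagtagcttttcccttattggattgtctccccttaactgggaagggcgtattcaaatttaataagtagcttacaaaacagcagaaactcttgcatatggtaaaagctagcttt
Mgst1, chr6:138140277-138140576, + strand: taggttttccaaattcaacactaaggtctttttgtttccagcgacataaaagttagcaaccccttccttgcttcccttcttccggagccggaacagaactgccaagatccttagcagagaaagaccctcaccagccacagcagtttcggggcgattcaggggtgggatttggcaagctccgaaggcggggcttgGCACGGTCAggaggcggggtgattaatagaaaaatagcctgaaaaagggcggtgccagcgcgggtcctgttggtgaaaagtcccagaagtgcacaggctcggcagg

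The motifs were searched on both strands, and a match says only that these letters occur in the window. The HNF1 motif, in the form the capitals show or its reverse complement, was in 3 of the 47 member windows (6.38%), at position -45 in Ugt1a1, -75 in Ugt1a10 and -79 in Sult1d1, against 0.399% of all 32851 windows. The antioxidant response element TGACNNNGC was in 4 member windows (8.51%), those of Gsta3 at -121, Gstm5 at -42, Gstm7 at -129 and Mgst1 at -56, against 12.4% of all windows. The xenobiotic response element GCGTG was in 12 member windows of 10 genes (25.5%), against 32.4% of all. The D-box TTANGTAA was in 1 member window (2.13%), that of Sult1a1 at -197, against 2.32% of all. The E-box CACGTG was in none of the 47 member windows, against 7.15% of all, and these short windows say nothing of clock binding elsewhere.

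Epithelial markers were high in these colon samples and markers of the muscle wall were near 0. The summed level of 9 surface colonocyte markers had a median of 6755 FPKM in Bmal1 knock out colons, 10160 in those of MR knock out mice and 7960 in wild type colons, while 6 smooth muscle markers summed to medians of 1.52, 1.48 and 2.31 FPKM in the same groups. Arntl was 2.87 to 6.28 FPKM, median 4.02, in Bmal1 knock out colons, against 2.25 to 19.2 FPKM, median 8.27, in wild type colons. Nr3c2 was 1.66 to 5.33 FPKM, median 2.79, in MR knock out colons, 3.22 to 13.9 FPKM, median 4.80, in Bmal1 knock out colons and 7.05 to 23.2 FPKM, median 14.9, in wild type colons. All levels are FPKM divided by a scale factor per library, the median ratio of its FPKM to the average library over well expressed rows. That factor was under 0.6 in 9 of 18 Bmal1 knock out libraries (1 at ZT0, 3 at ZT12, 3 at ZT16, 2 at ZT20) and in 5 of 18 high salt night fed libraries (3 at ZT8, 2 at ZT12), and in none of the others. These 14 libraries, set apart by that limit alone, are called the libraries that stand apart. Results that touch either group are also given without them. That fit replaces the time means by cosine and sine terms and so also differs in that respect. It holds no Bmal1 knock out library at ZT12 or ZT16 and no high salt night fed library at ZT8. Calls lost in it cannot decide whether a rhythm was present. In samples of mixed cells, fewer cells of a type and less RNA per cell cannot be told apart.

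The 39 genes spanned more than 3 orders of magnitude. Of the Gst genes Gstp1, a pi class enzyme, averaged 431.3 FPKM over all libraries, Gsto1, an omega class enzyme, 316.4 and Gstp2 218.8. Mgst3, a glutathione transferase and peroxidase of membranes, was the highest of all 39 at 1007 FPKM, with Mgst2 at 176.4 and Mgst1 at 103.9. Ugt levels were lower: Ugt2b34 averaged 84.8, Ugt1a7c 64.6 and Ugt1a6b 33.8 FPKM. Sult1a1, the phenol sulfotransferase, averaged 229.7 FPKM, Sult1d1 60.7 and Sult1b1 40.3. In all, 8 genes were at 100 FPKM or more and 5 under 1 FPKM. The lowest were Ugt1a10 at 0.343, Ugt8a, which makes galactosylceramide of myelin lipids, at 0.377 and Gsto2 at 0.407 FPKM. FPKM is scaled to transcript length, so these levels can be set beside each other, but only roughly. Libraries differed in their bias towards long or short transcripts. Of the genes named here, Gstp1, Gstp2, Ugt1a7c, Ugt1a6b and Ugt1a10 share much of their sequence with other genes, so their levels are uncertain.

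Single genes carried a large share of each family's sum. Mgst3 made up 74.4% to 80.8% of the Mgst sum in the 7 conditions, Sult1a1 51.4% to 66.7% of the Sult sum, Gstp1 25.4% to 31.1% of the Gst sum and Ugt2b34 32.6% to 37.7% of the Ugt sum. The summed Ugt level had a median of 142 FPKM in Bmal1 knock out colons, 293 in those of MR knock out mice and 324 in wild type colons. With day feeding it was 245 FPKM on high salt and 192 on low salt, and with night feeding 180 on high salt and 227 on low salt. The summed Gst level lay between 1379 and 1806 FPKM (medians) in the 7 conditions.

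**Figure D1:**
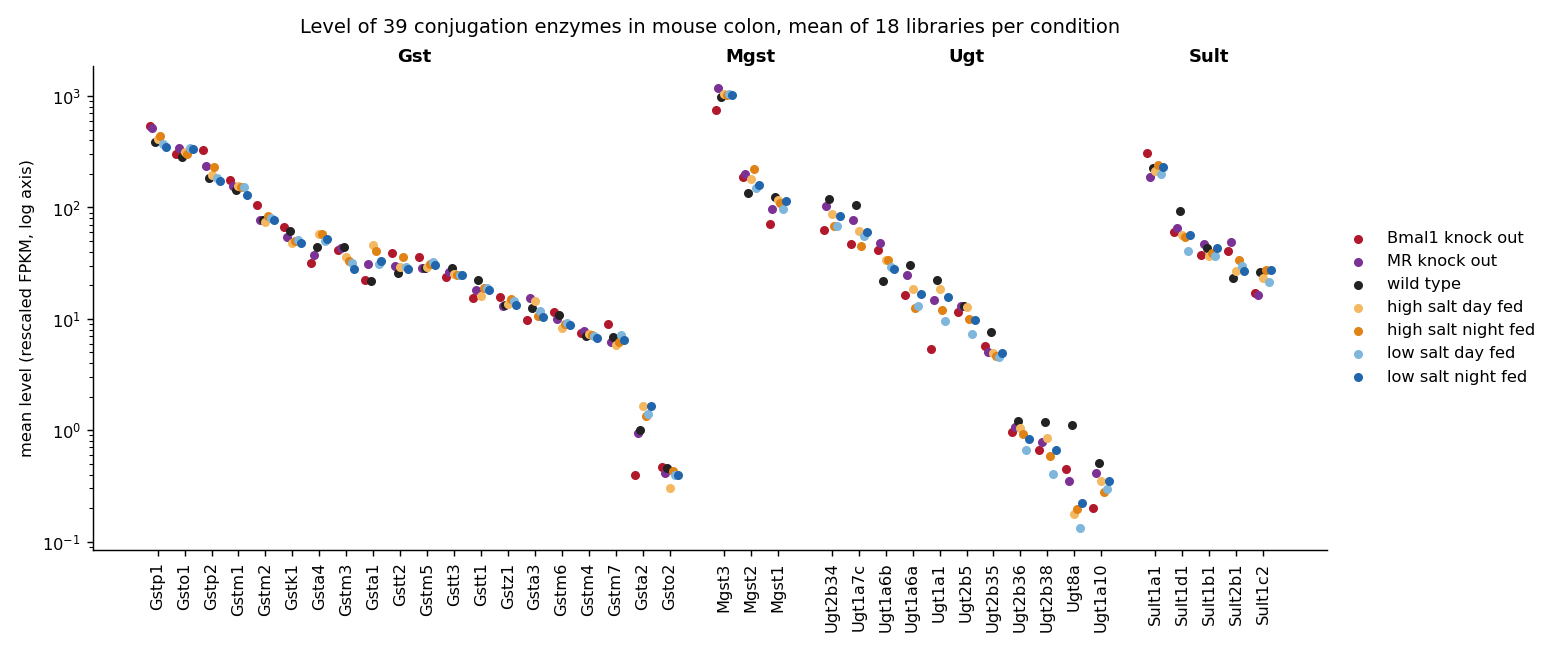
Mean level of each of the 39 genes in the 7 conditions (rescaled FPKM, log axis, 18 libraries per point), ordered within family by the mean over all libraries. The means run from Mgst3 at 1007 FPKM down to Ugt1a10 at 0.343 FPKM, with the Mgst genes all at 100 FPKM or more and no Ugt gene that high.

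Some of these genes have near copies. The 5 Ugt1a members lie at 1 locus on chromosome 1 (mm10, 88055388 to 88220002, + strand) and share their last exons, and the Gstm cluster on chromosome 3, Gsta1, Gsta2 and Gsta4 on chromosome 9, and Gstp1 and Gstp2 on chromosome 19 are also neighbours. The share of 50-base stretches of the longest transcript that also occur in another gene was 89.7% for Gsta1, 80.7% for Ugt1a6b, 72.6% for Gstp2, 69.3% for Ugt1a7c, 66.2% for Ugt1a10, 64.2% for Gsta2, 62.3% for Gstp1 and 58.2% for Ugt1a1. It was 20% or more in 13 of the 39, and in these the split of fragments between copies is uncertain. Gsta3 (chromosome 1, 21240589 to 21265661, + strand), Ugt2b34 (chromosome 5, 86889767 to 86906937, - strand), the 3 Mgst genes and the 5 Sult genes were each under 8%.

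In Bmal1 knock out colons, Ugt genes were the family that stood lowest: averaged over the day 9 of 11 Ugt genes were lower and 1 was higher than in wild type, where 49.4% of all tested rows were called lower and 29.6% higher. At ZT4 none of the 11 passed, where 6.40% of all rows were called. The averaged counts and values also depend on a covariate for each library's bias towards long or short transcripts, the length score. Ugt1a1, the enzyme that conjugates bilirubin, was 1.98 to 11.9 FPKM, median 3.48, in Bmal1 knock out colons, against 5.73 to 34.6 FPKM, median 21.2, in wild type colons. Most knock out libraries lay below the wild type range for this gene, and the highest lay within it. The log2 difference was -2.10 ± 0.21 (SE, limma, adjusted p = 4.33e-11), and -1.13 with the length score. Ugt2b34 was 33.2 to 147 FPKM, median 41.96, in Bmal1 knock out colons, against 66.6 to 153 FPKM, median 119, in wild type colons (-1.11 ± 0.12, limma, adjusted p = 3.56e-10, and -0.42 with the length score). Ugt1a7c fell by 1.43 ± 0.18 (limma, adjusted p = 7.79e-09), and was -0.47 with an adjusted p of 0.0429 with the length score. Ugt1a10 and Ugt8a are among the 9 lower genes but reached the limit of 0.5 FPKM through the wild type table alone, so a lower level in a knock out was in part fixed by that limit. Ugt1a10 averaged 0.201 FPKM in Bmal1 knock out and 0.507 FPKM in wild type colons. Ugt1a6b, named after its value was seen, was the 1 higher gene (0.82), and it was lower with the length score (-0.69, limma, adjusted p = 5.93e-05). All differences in level here and in the text that follows are on the scale log2(rescaled FPKM + 0.5), averaged over the 6 times.

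The other families were mixed. Of the 20 Gst genes 9 were higher and 5 lower: Gstm7 was higher by 0.40, Gstm2 by 0.44 and Gstt2, a theta class enzyme, by 0.55, all 3 lower with the FPKM as deposited (-0.43, -0.46 and -0.34) and Gstt2 at -0.04 with the length score, while Gsta2 was lower (-0.71, limma, adjusted p = 2.98e-08), and 10 others passed. Mgst1 was 37.3 to 110 FPKM, median 67.6, in Bmal1 knock out colons, against 93.7 to 159 FPKM, median 127, in wild type colons (-0.87 ± 0.09, limma, adjusted p = 3.58e-11). Mgst3 was lower (-0.43) and Mgst2, which also acts as a leukotriene C4 synthase, was higher (0.46, but -0.44 with the FPKM as deposited and -0.12 with the length score). Sult1c2 was 12.3 to 23.4 FPKM, median 16.7, in Bmal1 knock out colons, against 21.9 to 33.6 FPKM, median 26.4, in wild type colons (-0.64 ± 0.08, limma, adjusted p = 1.72e-08). Sult1d1 was lower (-0.62), Sult2b1, the cholesterol sulfotransferase, higher (0.79 ± 0.12, limma, adjusted p = 4.47e-07) and Sult1a1 higher (0.42 ± 0.11, limma, adjusted p = 0.000935), but with the FPKM as deposited these were -0.10 and -0.48. The length score ended all 3 of the last calls: Sult1d1 was then -0.08, Sult2b1 0.07 and Sult1a1 -0.03, with adjusted p of 0.699, 0.625 and 0.877 (limma).

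Over the 39 genes 13 were higher and 19 lower, with a median of -0.22 against -0.14 over all tested rows. Of all tested rows 29.6% were called higher and 49.4% lower, so a call of either kind was common in this comparison. Without the libraries under a scale factor of 0.6 the split was 13 higher and 16 lower, and with the FPKM as deposited it was 0 higher and 36 lower (median of all rows -0.84). With the length score it was 1 higher and 16 lower (median of all rows 0.00). Of the Ugt genes 5 were then lower and none higher, namely Ugt1a1, Ugt2b34, Ugt1a7c and Ugt1a10 of the 9, and Ugt1a6b. The shares of all rows called under these other settings are not given, so these counts have no background beside them. The length score averaged -0.0877 ± 0.130 (SD, n = 18) in Bmal1 knock out and 0.163 ± 0.101 (SD, n = 18) in wild type libraries.

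The knock out libraries also differed among themselves. Just 5 of the 18 had a scale factor of at least 1: all 3 at ZT4, 1 at ZT0 and 1 at ZT8. In these 5 Ugt2b34 was 89.4 to 147 FPKM, Ugt1a7c 75.8 to 122 FPKM and Ugt1a6a 31.6 to 47.1 FPKM. In the other 13 knock out libraries Ugt2b34 was 33.2 to 49.9 FPKM, Ugt1a7c 17.9 to 39.9 FPKM and Ugt1a6a 5.82 to 12.7 FPKM, with no overlap. These examples were chosen after their values were seen. Of the 39 genes 11 were higher in these 5 libraries than in the other 13 without overlap, 9 of 11 Ugt genes, Mgst1 and Gstt3, where 21.3% of all tested rows were. The gap ran the other way in 5, namely Gstm1, Gstp1, Gstp2, Gstt2 and Mgst2, where it did in 10.9% of all rows. How far the library differences account for the differences in level was not tested beyond these values and the alternatives given. The 9 Bmal1 knock out libraries that stand apart are among the 13 with a scale factor under 1. The fit without those 9 keeps the rest of the 13, so it does not remove this split. Values from that fit therefore cannot decide how far the split accounts for a difference in level.

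At ZT4, where all 3 knock out libraries had a scale factor of at least 1, 1 of the 39 genes passed the test. Sult1c2 was 13.1, 17.5 and 20.2 FPKM in Bmal1 knock out colons, against 27.7, 28.9 and 29.2 FPKM in wild type colons at ZT4 (-0.76 ± 0.21, limma, adjusted p = 0.0206). All 3 knock out values lay below all 3 wild type values, as they did for Ugt1a1, with 9.91, 10.3 and 10.4 FPKM in Bmal1 knock out and 18.3, 18.9 and 23.2 FPKM in wild type colons (-0.94 ± 0.51, limma, adjusted p = 0.302). Gsta4, Gsto2, Gstt1, Mgst1, Sult1a1 and Ugt1a10 lay below wild type in the same way, but none of them passed the test. Ugt1a10 reached the limit of 0.5 FPKM through the wild type table alone, so its place was in part fixed by that limit. Gsto2 reached it in 1 table alone and was under 0.5 FPKM in all these ZT4 libraries. Gsta1, Gsto1, Gstm5, Sult2b1, Ugt2b5 and Ugt2b36 lay above wild type without overlap, and none of them passed either. The share of all rows with such a gap is not given, so these gaps do not set the genes apart from other rows. The median difference over the Ugt genes at ZT4 was 0.06. Ugt2b34 was 109, 128 and 140 FPKM in Bmal1 knock out and 108, 118 and 136 FPKM in wild type colons at ZT4 (0.06 ± 0.30, limma, adjusted p = 0.954). Among all rows 6.40% were called at this single time with 3 libraries a group. A p that misses the threshold with 3 libraries does not show that the levels were alike.

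**Figure D2:**
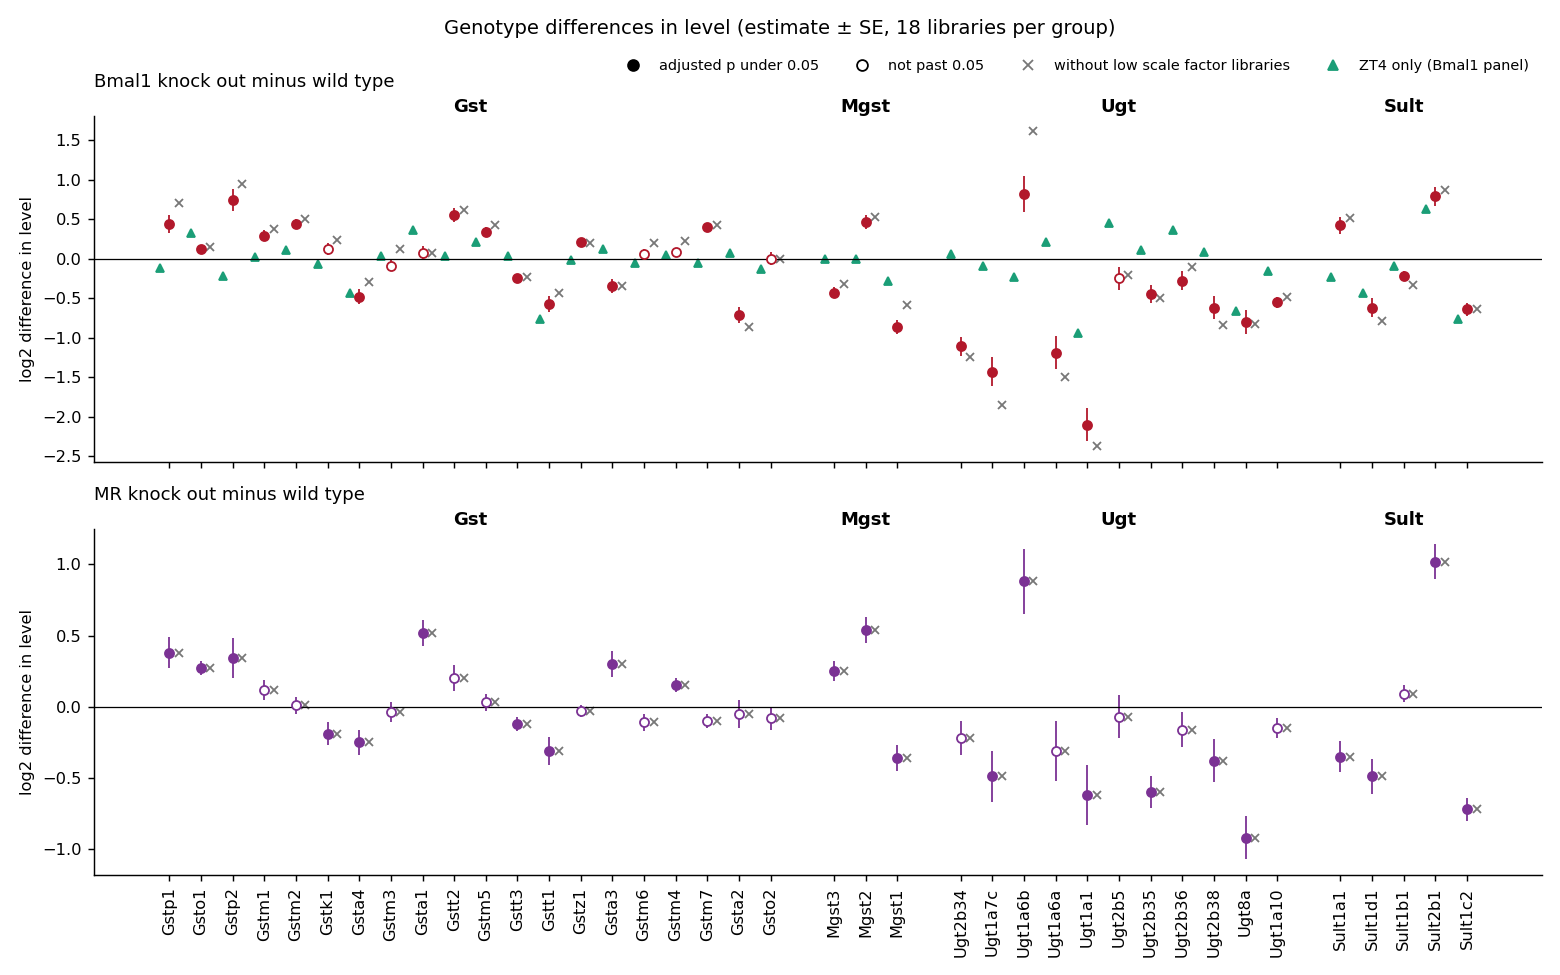
Log2 difference in level (estimate ± SE, 18 libraries per group) for Bmal1 knock out minus wild type (top) and MR knock out minus wild type (bottom), filled where the adjusted p is under 0.05. Crosses give the value without libraries under a scale factor of 0.6 and triangles, in the top panel, the difference at ZT4 alone. In the top panel the Ugt points reach -2.10 for Ugt1a1, while most Ugt triangles lie near 0.

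Supply genes and exporters are given beside a background of 49.4% of all rows lower and 29.6% higher in the Bmal1 knock out average. Of 5 genes of glucuronidation supply and reversal 4 fell and none rose, among them Slc35d1, a transporter of UDP-glucuronic acid (-1.68), and Ugdh, which makes UDP-glucuronic acid (-0.68). Of 8 tested genes of sulfonation supply and reversal 7 fell and none rose, with the sulfate transporter Slc26a2 at -1.96 ± 0.19 (limma, adjusted p = 1.89e-11) and the sulfatase Arsa at -0.82. All 4 tested conjugate efflux pumps fell, Abcc4 by 0.91, Abcc3 by 0.79 and Abcc6 by 0.57. The summed pump list was 36.9 to 118 FPKM in Bmal1 knock out and 55.6 to 117 FPKM in wild type colons. The sulfonation list summed to 165 to 449 FPKM in Bmal1 knock out and 227 to 435 FPKM in wild type colons. For the glucuronidation list it was 158 to 319 FPKM in Bmal1 knock out and 205 to 367 FPKM in wild type colons. These ranges overlapped, and values at ZT4 alone are not given for these genes. Of 9 genes of glutathione supply and export 4 rose and 5 fell, with Ggct at 0.76, Ggt1 at -1.10 and Gclc, the catalytic subunit of the first step of glutathione synthesis, at -1.07. Of 14 xenobiotic sensors 2 rose and 11 fell, Ahr at -0.77 and Vdr at -0.67 among them and Keap1 at 0.34. With the length score Gclc was -0.22, with an adjusted p of 0.147, and Ugdh -0.26, with an adjusted p of 0.16 (limma). Other cell markers moved as well: 5 of 9 surface colonocyte markers were lower and 2 higher (median -0.88), all 4 distal colon Hox genes were lower (median -0.85) and 3 of 4 tested small intestine markers were higher (median 0.87). The summed distal colon markers were 57.6 to 120 FPKM in Bmal1 knock out and 114 to 198 FPKM in wild type colons, and the summed surface colonocyte markers 4694 to 11190 FPKM in Bmal1 knock out and 6178 to 10920 FPKM in wild type colons. Of the small intestine markers, the sum was mostly Fabp2, which averaged 600.2 FPKM in Bmal1 knock out and 292 FPKM in wild type colons, while Lct averaged 0.00799 and 0.0101 FPKM. Their part in the results was not tested.

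In MR knock out colons the smallest adjusted p among the 39 genes belonged to 2 sulfotransferases. Sult2b1 was 21.2 to 88.5 FPKM, median 46.5, in MR knock out colons, against 15.0 to 43.2 FPKM, median 22.3, in wild type colons. The median was above the highest wild type library, and the ranges overlapped. The log2 difference was 1.02 ± 0.12 (limma, adjusted p = 1.27e-08), in the same direction at 6 of 6 times. Sult1c2 was 10.2 to 26.4 FPKM, median 15.7, in MR knock out colons, against 21.9 to 33.6 FPKM, median 26.4, in wild type colons (-0.72 ± 0.08, limma, adjusted p = 6.63e-09). Sult1d1 was lower (-0.49) and Sult1a1 was lower (-0.35 ± 0.11, limma, adjusted p = 0.00771), the last 2 at 6 of 6 times.

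Of the 20 Gst genes 6 were higher and 4 lower in MR knock out colons. Gsta1, an alpha class enzyme, was 21.5 to 46.8 FPKM, median 30.4, in MR knock out colons, against 13.1 to 32.9 FPKM, median 19.0, in wild type colons (0.52 ± 0.09, limma, adjusted p = 7.07e-06). Gsta3 (0.30), Gsto1 (0.27) and Gstp1 (0.38) were also higher, and 6 others passed. For Gsto1 quantile normalization gave -0.03, and for Gstp1 the length score gave -0.08. Mgst2 was higher (0.54 ± 0.09, limma, adjusted p = 7.76e-06), Mgst1 lower (-0.36) and Mgst3 higher (0.25, but -0.01 with quantile normalization). Of the 11 Ugt genes 1 was higher and 5 lower: Ugt2b35 fell by 0.60 and Ugt1a1 by 0.62, while Ugt1a6b rose by 0.88. Ugt8a is among the 5, at a mean of 0.350 FPKM in MR knock out and 1.12 FPKM in wild type colons, but it too reached the limit through the wild type table alone. With the length score Ugt1a1 was -0.02 and Ugt1a6b -0.05, and of the Ugt genes 2 were lower and none higher.

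Over the 39 genes 10 were higher and 13 lower in MR knock out colons (median -0.08, against -0.09 over all tested rows), where 24% of all rows were called higher and 41.7% lower. With the FPKM as deposited 4 were higher and 15 lower. Of 8 tested genes of sulfonation supply and reversal 5 fell and none rose, Slc26a2 by 1.04, and Ephx1, the microsomal epoxide hydrolase, was also lower (-0.97). Beside these, 5 of 9 surface colonocyte markers were higher and 1 lower (median 0.41), 5 of 6 tuft markers were higher, 4 of 5 tested enteroendocrine markers were lower and all 4 distal colon Hox genes were lower (median -0.77). The summed distal colon markers were 29.0 to 158 FPKM in MR knock out and 114 to 198 FPKM in wild type colons. The summed small intestine markers were 175.9 to 1662 FPKM, median 840.4, in MR knock out colons. In wild type colons they were 183.7 to 539.7 FPKM, median 314.8. Their part in the results was not tested. The 2 knock out comparisons share the wild type libraries. For Sult1c2, the values were -0.64 in Bmal1 knock out and -0.72 in MR knock out colons, and for Sult2b1 0.79 and 1.02.

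With day feeding, Ugt genes and 2 alpha class Gst genes were higher on high than on low salt. Gsta1 was 26.3 to 69.0 FPKM, median 47.2, in high salt day fed colons, against 17.2 to 46.8 FPKM, median 32.0, in low salt day fed colons. The high salt median lay above the highest low salt library, and the log2 difference was 0.58 ± 0.09 (limma, adjusted p = 5.8e-06), higher at 6 of 6 times. Ugt2b5 was 5.96 to 19.7 FPKM, median 13.1, in high salt day fed colons, against 3.23 to 10.2 FPKM, median 7.26, in low salt day fed colons (0.76 ± 0.13, limma, adjusted p = 4.08e-05). Ugt1a1 was 5.48 to 40.9 FPKM, median 17.7, in high salt day fed colons, against 4.78 to 15.2 FPKM, median 8.998, in low salt day fed colons (0.83 ± 0.18, limma, adjusted p = 0.00107). The ranges of both genes overlapped between the diets, with the high salt values reaching further up.

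In all, 5 of 11 Ugt genes rose and none fell with day feeding, the others being Ugt2b36 (0.40), Ugt2b38 (0.53) and Ugt2b34 (0.36, named after its value was seen). The median over the Ugt family was 0.36, against 0.01 over all tested rows. Of the Ugt genes 7 were higher with the length score and 4 with the FPKM as deposited. Of the Gst genes 3 rose, Gsta3 (0.37 ± 0.07, limma, adjusted p = 6.14e-05, higher at 3 of 6 times) among them, and 3 fell, among them Gstm7 (-0.28) and Gsto1 (-0.14). Mgst1 (0.26), Mgst2 (0.28) and Sult1d1 (0.48 ± 0.14, limma, adjusted p = 0.0112) rose. Over the 39 genes 11 were higher and 3 lower, where 7.73% of all rows were called higher and 6.94% lower. Leaving out any 1 of the 3 replicate numbers gave 5 to 10 calls in place of 14.

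Outside the families, Nqo1, a quinone reductase and NFE2L2 target, rose with high salt under day feeding by 0.57 ± 0.07 (limma, adjusted p = 2.51e-08). Of 8 tested NFE2L2 targets 3 rose and none fell, the others being Akr1b8 (0.43) and Srxn1 (0.23). Ugdh rose (0.41), 2 of 6 tested other conjugating enzymes rose, Nat2 (0.32) among them, and of 4 tested efflux pumps 1 rose, Abcc3 (0.32). Of 7 goblet cell markers 4 were lower and none higher in the same comparison, of 9 surface colonocyte markers 2 were higher and none lower, and of 4 distal colon Hox genes 3 were lower. The summed goblet markers were 2538 to 5995 FPKM in high salt day fed and 3501 to 9949 FPKM in low salt day fed colons. Their part in the results was not tested.

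With night feeding the salt comparison looked different, but it rests in part on the 5 libraries that stand apart. Of the 39 genes 9 were higher and 5 lower, where 14.7% of all rows were called higher and 19.0% lower. Without those libraries 6 were higher and none lower, and with the FPKM as deposited 0 were higher and 31 lower (median of all rows -0.44). Mgst2 was 154 to 364 FPKM, median 214, in high salt night fed colons, against 114 to 229 FPKM, median 144, in low salt night fed colons (0.49 ± 0.09, limma, adjusted p = 4.8e-05, and 0.42 with an adjusted p of 0.00534 without those libraries). Gstp1 (0.35), Gstm3 (0.26) and Gstm1 (0.26) were also higher, each past the threshold without those libraries too, but with the FPKM as deposited these were -0.15, -0.23 and -0.24, and Mgst2 was -0.01. Of the Ugt genes 4 were lower and none higher, among them Ugt1a7c (-0.48) and Ugt1a1 (-0.50), and without those libraries none of the 11 passed. Ugt1a1 was then -0.25 (limma, adjusted p = 0.489). Beside these, 2 of 9 surface colonocyte markers and 3 of 4 distal colon Hox genes were lower and none higher, and their part in the results was not tested. The salt effect itself differed between day and night feeding in 15 of the 39 genes, positive with day feeding relative to night feeding in 11 and negative in 4, where 10.8% of all rows were called positive and 8.17% negative, and in 1 gene, Ugt1a1, without those libraries.

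**Figure D3:**
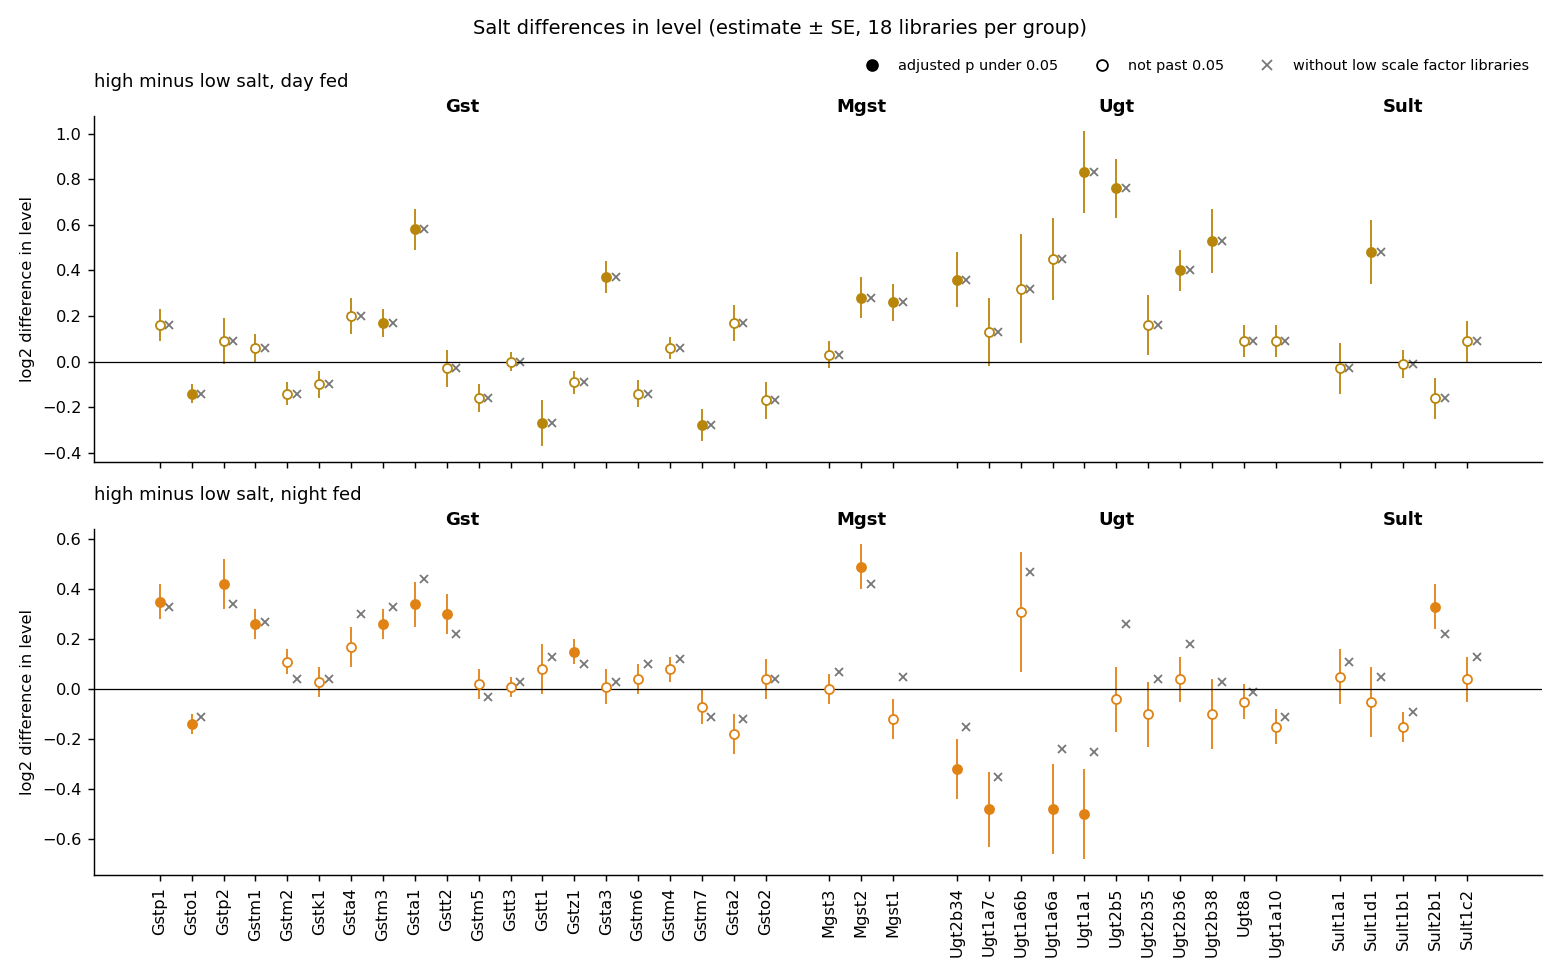
Log2 difference in level between high and low salt (estimate ± SE, 18 libraries per group), with day feeding (top) and night feeding (bottom), filled where the adjusted p is under 0.05. Crosses give the value without libraries under a scale factor of 0.6. With day feeding Gsta1 at 0.58, Ugt1a1 at 0.83 and Ugt2b5 at 0.76 stand highest, and with night feeding Ugt1a1 stands at -0.50.

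Few levels differed by feeding time on low salt. There 2 Gst genes were higher with day feeding, Gstm3 (0.20) and Gstm1 (0.21), and 1 Ugt and 2 Sult genes were lower, Ugt1a1 (-0.61), Sult1b1 (-0.22) and Sult1d1 (-0.45), with adjusted p between 0.0353 and 0.0492 (limma). None of the 5 passed when any 1 replicate number was left out, and 0.957% of all rows were called higher and 2.36% lower. On high salt 7 genes were higher and 7 lower with day feeding, where 14.4% of all rows were called higher and 12.2% lower. In the same comparison 3 of 9 surface colonocyte markers were higher and 3 of 7 goblet markers lower, and their part was not tested. Without the libraries that stand apart, and with cosine and sine terms, 1 passed, and with the FPKM as deposited 31 were higher and none lower. Gsta3 was 8.27 to 20.1 FPKM, median 14.7, in high salt day fed colons, against 6.21 to 18.7 FPKM, median 10.1, in high salt night fed colons (0.44 ± 0.07, limma, adjusted p = 1.47e-06, and 0.42 with an adjusted p of 0.00625 without them).

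Daily rhythms were tested by a 24 h cosine and sine through the time means of each condition. The amplitude runs from the mean to the fitted peak on the log2 scale. In freely fed wild type colons 8 of the 39 genes were rhythmic, all of them Gst genes, where 17.7% of all rows were called. With the length score 14 were called, Mgst1, Mgst2 and Sult2b1 among them, and with the FPKM as deposited 2. The peaks of the 8 ran from ZT6.02 to ZT14.8. Gsta1 peaked at ZT12.6 (amplitude 0.57 ± 0.09, limma, adjusted p = 3.74e-05), Gsta2 at ZT14.8 (0.51), Gstm1 at ZT11.3 (0.36) and Gstm7 at ZT7.44 (0.38 ± 0.05, limma, adjusted p = 4.28e-06), and the other 4 included Gsta3 at ZT13.5 (0.40). Nr1d1, a clock repressor, peaked at ZT8.79 with an amplitude of 2.63 in the same colons. Mgst1 also passed in wild type in the fit with cosine and sine terms and no low scale factor libraries (limma, adjusted p = 0.0368), and a call in 1 family and not in another is no test of a difference between them.

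In low salt night fed colons 17 genes were rhythmic, 13 of them Gst, against 22.0% of all rows. Gsta1 was 12.8, 18.9 and 21.9 FPKM at ZT0 and 46.7, 46.8 and 49.8 FPKM at ZT12, with its peak at ZT13.4 (amplitude 0.70 ± 0.09, limma, adjusted p = 4.03e-07). Every ZT12 library lay above every ZT0 library. Gsta2 peaked at ZT14.7 (0.70), Gsta4, which conjugates the lipid peroxidation product 4-hydroxynonenal, at ZT14.5 (0.55) and Gstm1 at ZT11.9 (0.40). Outside the Gst genes, Mgst3 (ZT13.7, 0.38), Sult1c2 (ZT13.8, 0.50), Ugt1a1 (ZT16.7, 0.63) and Ugt8a (ZT15.5, 0.28) passed.

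In low salt day fed colons 18 genes were rhythmic, again 13 of them Gst, against 40.6% of all rows. Their Gst peaks ran from ZT10.5 to ZT20.2 with day feeding and from ZT7.88 to ZT16.8 with night feeding. Gstm1 peaked at ZT13.0 with day feeding and ZT11.9 with night feeding, Gstm3 at ZT13.4 in both and Gsta1 at ZT14.3 with day feeding and ZT13.4 with night feeding. For these 3 the rhythm difference was 0.12 ± 0.09, 0.01 ± 0.08 and 0.27 ± 0.13, with adjusted p of 0.494, 0.991 and 0.182 (limma). Over the same comparison the peak of Nr1d1 was at ZT23.8 with day feeding and at ZT9.59 with night feeding. A p that misses the threshold does not show that these Gst rhythms were alike. These 3 genes were picked for naming after their values were seen.

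Other members did differ between the low salt feeding groups. A rhythm difference was called in 15 of the 39 genes, 8 Gst, 1 Mgst, 5 Ugt and 1 Sult, against 36.9% of all rows. Ugt1a7c (0.91 ± 0.21, limma, adjusted p = 0.0033), Ugt1a1 (1.04 ± 0.26, limma, adjusted p = 0.00672) and Ugt2b34 (0.69 ± 0.18, limma, adjusted p = 0.00812) were among the Ugt genes. In day fed colons Ugt1a7c peaked at ZT5.18, Ugt2b34 at ZT3.62 and Ugt2b35 at ZT2.62, 3 of the 4 rhythmic Ugt genes there. None of the 4 was called in day fed colons with the length score. Mgst2 (0.63 ± 0.13, limma, adjusted p = 0.000771) and Sult1c2 (0.53 ± 0.13, limma, adjusted p = 0.00689) also differed.

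Gsta3, an alpha class Gst with high activity towards aflatoxin epoxide in mice, was called rhythmic in all 7 conditions, and in 5 of them in the fit with cosine and sine terms and no low scale factor libraries. In low salt day fed colons it was 3.96, 4.10 and 4.41 FPKM at ZT0, 7.24, 8.37 and 9.05 FPKM at ZT4 and 15.7, 15.9 and 17.2 FPKM at ZT12. In high salt day fed colons it was 16.9, 18.5 and 19.9 FPKM at ZT0, 16.5, 16.7 and 20.1 FPKM at ZT4 and 8.50, 12.3 and 14.2 FPKM at ZT12. The high salt libraries lay far above the low salt libraries at ZT0 and ZT4 and below them at ZT12. The peak was at ZT3.67 in high salt day fed colons (amplitude 0.38) and at ZT12.6 in low salt day fed colons (amplitude 0.85 ± 0.07, limma, adjusted p = 1.11e-12). The rhythm difference was 1.14 ± 0.09 (limma, adjusted p = 5.99e-12), and it was 1.14 to 1.16 when any 1 replicate number was left out.

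In the night fed groups Gsta3 peaked at ZT16.3 on high salt (amplitude 0.43) and at ZT14.0 on low salt (amplitude 0.29). Day and night feeding differed in Gsta3 rhythm on high salt (0.81 ± 0.09, limma, adjusted p = 2.98e-08, and 0.87 with an adjusted p of 5.47e-06 without the libraries that stand apart) and on low salt (0.58 ± 0.09, limma, adjusted p = 3.9e-05). Freely fed colons peaked at ZT7.82 without Bmal1 (amplitude 0.42, not past the threshold without the libraries that stand apart, 0.33 with an adjusted p of 0.14, limma), at ZT15.5 in MR knock out (0.28, limma, adjusted p = 0.0497, not called when any 1 replicate number was left out) and at ZT13.5 in wild type (0.40). Gsta2, of the same class, peaked at ZT3.77 in high salt day fed and ZT10.5 in low salt day fed colons (rhythm difference 0.46 ± 0.11, limma, adjusted p = 0.00998).

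**Figure D4:**
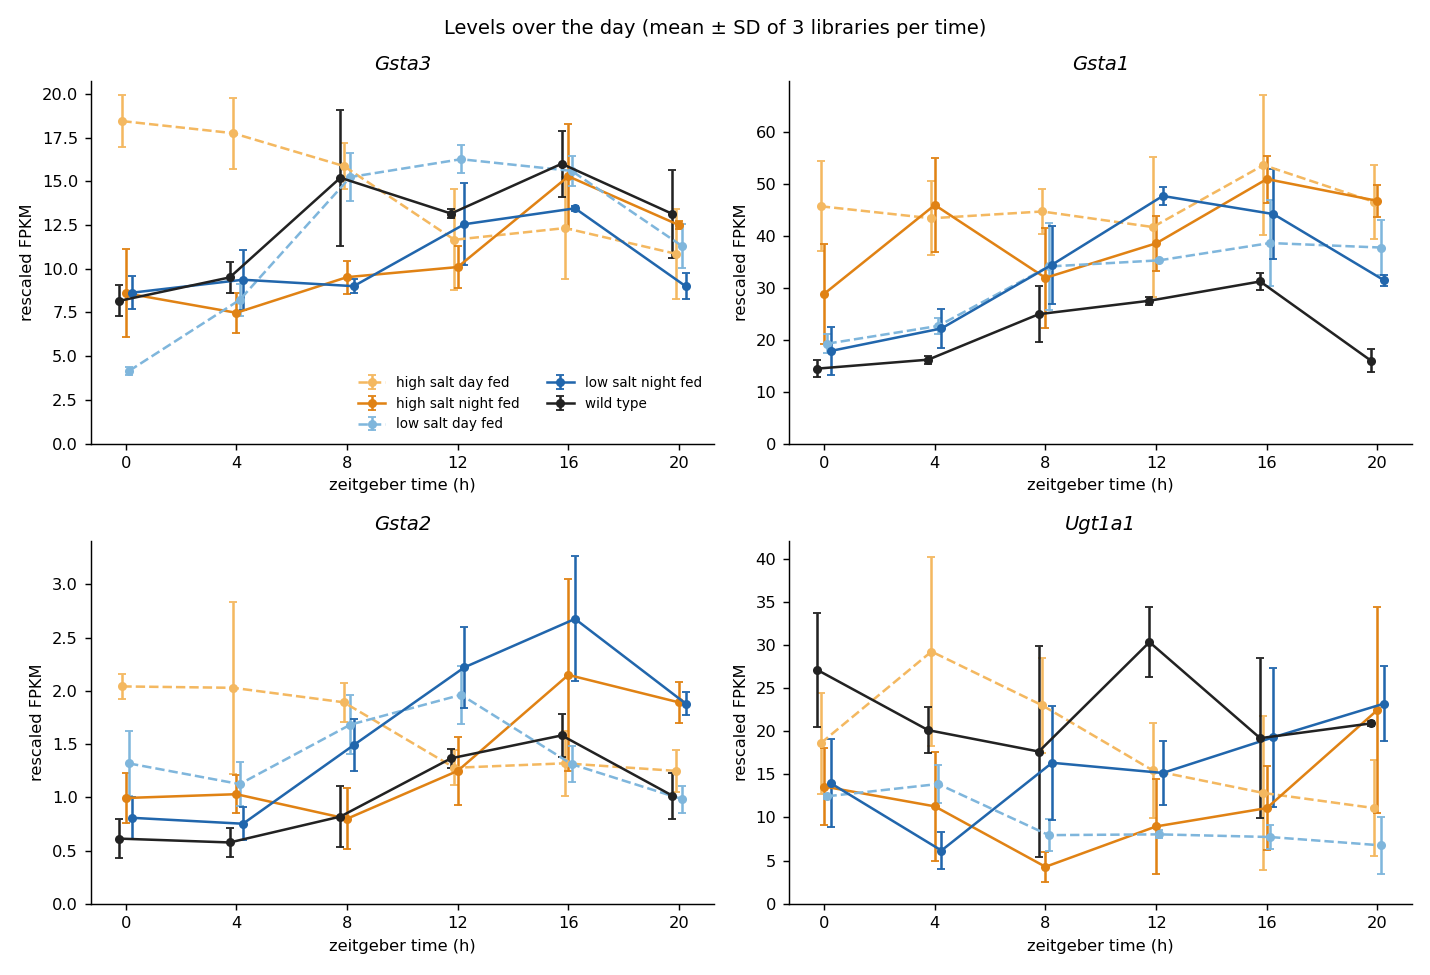
Levels over the day (rescaled FPKM, mean ± SD of 3 libraries per time) of Gsta3, Gsta1, Gsta2 and Ugt1a1 in the 4 diet and feeding groups and in wild type colons, day fed groups dashed. Gsta3 stands at 18.5 FPKM in high salt day fed and at 4.16 FPKM in low salt day fed colons at ZT0, and the curves cross between ZT8 and ZT12.

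The count of other rhythm differences by salt under day feeding varied with the setting. In high salt day fed colons 12 of the 39 genes were rhythmic (6 Gst, 1 Mgst, 3 Ugt and 2 Sult), against 30.1% of all rows. The 3 Ugt peaks were at ZT5.33 for Ugt1a1 (0.71), ZT3.98 for Ugt1a7c (0.49) and ZT3.78 for Ugt2b34 (0.42). A rhythm difference between high and low salt was called in 7 genes, 6 Gst and 1 Sult, against 11.2% of all rows, in 5 with cosine and sine terms, in 17 with the length score, in 20 with the FPKM as deposited and in 1 to 5 when 1 replicate number was left out. Beside Gsta3 and Gsta2 these were Gstz1, which also isomerizes maleylacetoacetate in tyrosine breakdown (0.33 ± 0.07, limma, adjusted p = 0.00269), Gstm1 (0.35), 2 other Gst genes and Sult1a1 (0.61 ± 0.15, limma, adjusted p = 0.0176).

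In high salt night fed colons 29 genes were called rhythmic, against 54.9% of all rows, but without the libraries that stand apart 3 were called, Gsta2, Gsta3 and 1 other Gst gene. Of the Ugt genes 9 were called with all libraries, with peaks from ZT20.8 to ZT23.2, and none without them. Ugt1a1 was 2.30, 4.83 and 5.72 FPKM at ZT8, the time at which all 3 libraries were under 0.6, and 8.70, 28.3 and 30.4 FPKM at ZT20. Without the libraries that stand apart no high salt night fed library is left at ZT8, so the lost calls cannot decide whether a rhythm was present. A rhythm difference between high and low salt under night feeding was called in 12 genes (11.4% of all rows) with all libraries and in 0 without them, and between day and night feeding on high salt in 18 (31.3% of all rows) and in 8. The 8 included Gsta3, Gsta2, Gsto1, Gstk1 and Ugt1a1 (1.41 ± 0.26, limma, adjusted p = 0.000217, and 1.05 with an adjusted p of 0.0376 without them).

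In Bmal1 knock out colons 22 genes were called rhythmic, against 54.6% of all rows, and without the libraries that stand apart 1 was called. The 9 Ugt genes called peaked from ZT3.80 to ZT5.13. Ugt2b34 was 33.2, 38.2 and 89.4 FPKM at ZT0, 109, 128 and 140 FPKM at ZT4, and 33.5, 36.3 and 42.8 FPKM at ZT16. The ZT4 libraries, which all had a scale factor of at least 1, lay above all ZT16 libraries, which were all under 0.6. It was the gene still called without the libraries under 0.6 (amplitude 1.14, limma, adjusted p = 0.0414). A rhythm difference from wild type was called in 15 genes (28.9% of all rows) with all libraries and in 0 without them. Without the libraries under 0.6 no Bmal1 knock out library is left at ZT12 or ZT16. The lost calls and the amplitude of 1.14 thus cannot decide whether a rhythm was present. Nr1d1 was lower by 3.12 on the log2 scale in Bmal1 knock out colons, the same value without those libraries.

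In MR knock out colons 8 genes were rhythmic (5 Gst, 1 Ugt and 2 Sult), against 22.0% of all rows. Gstm1 peaked at ZT11.5 (0.24), Gstm7 at ZT7.46 (0.20), Sult1a1 at ZT8.36 (0.41 ± 0.11, limma, adjusted p = 0.0247) and Ugt1a6b at ZT6.10 (0.87). Leaving out 1 replicate number left 0 to 5 calls. No rhythm difference from wild type passed in limma with Benjamini-Hochberg adjustment, 3 of the 39 had an unadjusted p under 0.05, and 0.828% of all rows were called.

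**Figure D5:**
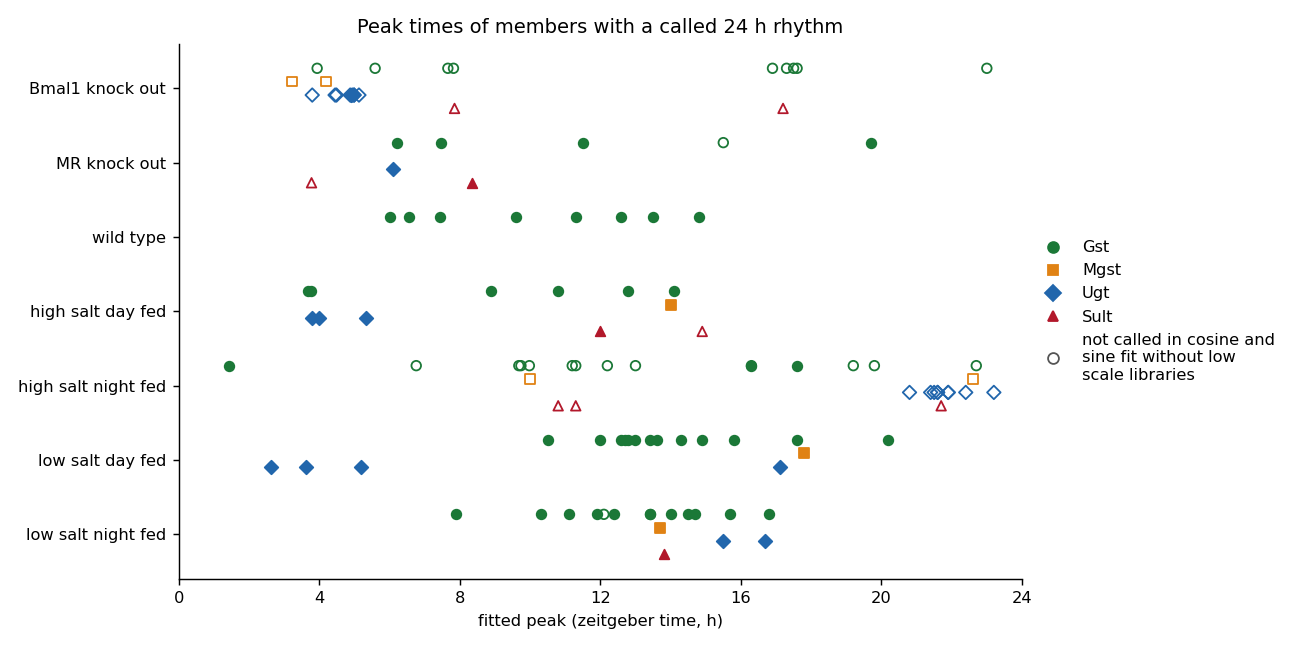
Fitted peak times (zeitgeber time, h) of the genes with a called 24 h rhythm in each condition, by family, hollow where the gene was not called in the fit with cosine and sine terms and without libraries under a scale factor of 0.6. In wild type and both low salt groups most filled Gst points lie between ZT6 and ZT18, while 1 of 22 points of the Bmal1 knock out group and 3 of 29 of the high salt night fed group are filled. The fit behind the filling holds no Bmal1 knock out library at ZT12 or ZT16 and no high salt night fed library at ZT8.

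Over the 7 conditions, each of the 39 genes was called rhythmic in at least 1, 13 of them in 4 or more. Of these 13, 9 were Gst, 3 Ugt and 1 Sult. Of all tested rows, 17.7% (wild type) to 54.9% (high salt night fed) were called in a single condition. The share of all rows called in at least 1 condition, or in 4 or more, is not given. These counts therefore do not set the 39 genes apart from other rows. Without the libraries under a scale factor of 0.6, and with cosine and sine terms, 30 genes were called in at least 1 condition and 4 genes, all Gst, in 4 or more.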

How the data were processed

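Poly(A) RNA of mouse colon was sequenced with a stranded Illumina TruSeq mRNA kit, per the labels' protocols. TopHat2 2.1.1, Cufflinks 2.2.1 and mm10 are named in the submitters' processing notes. The authors deposited FPKM, 1 table per condition. No source used here says whether the tables were normalized together, so differences in level cross tables, while rhythms lie within one. No counts are given, so depth is unknown and no counting interval is given.

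Each library's FPKM were rescaled by its median ratio to the row means (the scale factor), over the 6966 rows at 1 FPKM or more in every library, and tested as log2(value + 0.5). Rows with a mean of at least 0.5 in 1 condition or more were tested (12439). limma 3.58.1 (R 4.3.3, trend and robust) fitted 1 mean per condition and time, in 54 libraries for genotype and 72 for feeding. A level is the difference averaged over the 6 times. A rhythm is an F test on 24 h cosine and sine contrasts, and a rhythm difference the same on the difference. Tests were two-sided, Benjamini-Hochberg adjusted over all tested rows at 0.05, and were tested on simulated data. The labels do not say that replicates are separate animals, so p-values measure the spread between these samples, which may be technical.

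Per result, up to 4 called members per family with the smallest adjusted p are named, the 3 highest of a family for levels, and up to 3 genes of each pathway list. Members and lists were chosen with earlier results of these data known, and the lists of pathway genes support nothing by themselves. Alternatives were another pseudocount, another or no filter, FPKM as deposited, quantile normalization, a replicate block, the length score as covariate (the slope of a library's values on transcript length), cosine and sine terms with libraries under a scale factor of 0.6 left out, and each replicate number left out. Cosine and sine terms in all libraries, and ZT4 alone for Bmal1 knock out, were chosen after seeing the data. Promoter windows and their sequences come from RefSeq (GRCm38.p6), and gene positions from GENCODE.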

Additional observations from a re-analysis of the deposited data

Results flagged for a closer look

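The effect of high against low salt on level differed between day and night feeding in 15 of the 39 genes by a test of that difference (limma, adjusted p under 0.05). Positive values mean a higher salt effect with day feeding. Of the Ugt genes 7 were positive and none negative: Ugt1a1 (1.32 ± 0.26), Ugt1a6a (0.93), Ugt2b5 (0.80), Ugt2b34 (0.69), Ugt2b38 (0.64), Ugt1a7c (0.61) and Ugt2b36 (0.36). Of the Gst genes Gsta3 (0.36) and Gsta2 (0.35) were positive, and Gstz1 (-0.25), Gstm2 (-0.25) and Gstt2 (-0.34) negative. Mgst1 (0.38) and Sult1d1 (0.52) were positive and Sult2b1 (-0.49) negative. Over the 39 genes 11 were positive and 4 negative, where 10.8% of all rows were called positive and 8.17% negative. Without the 5 high salt night fed libraries under a scale factor of 0.6, and with cosine and sine terms, 1 gene passed, Ugt1a1 (1.07, adjusted p = 0.016). The part of those libraries in the other 14 was not tested beyond this value.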

How the results depend on the processing

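FPKM values without counts, tables that may have been normalized separately, and 14 libraries with a scale factor under 0.6 limit these results. Of 2268 values recomputed for 188 named values, 1826 still passed the threshold, 412 no longer passed and 30 reversed. Direction was checked for differences in level alone. For rhythms and rhythm differences a shift of the peak was not counted. The cause of these changes was not tested.

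With FPKM as deposited, calls numbered 31 (main 14) for salt with night feeding, 8 (14) for salt with day feeding, 0 (5) for feeding on low salt, 31 (14) for feeding on high salt and 27 (15) for the salt effect by feeding. Rhythms then numbered 38 (22) in Bmal1 knock out colons, 3 (8) with MR knock out, 2 (8) in wild type and 10 (17) in low salt night fed colons. Rhythm differences numbered 35 (15) for Bmal1 knock out, 38 (12) for salt with night feeding, 20 (7) for salt with day feeding and 35 (18) for feeding on high salt. With cosine and sine terms and no low scale factor libraries, levels numbered 6, 1, 1 and 1 for salt with night feeding, feeding on low salt, feeding on high salt and the salt effect by feeding. Neither low salt group holds such a library. Rhythms then numbered 1 in Bmal1 knock out and 3 in high salt night fed colons, and rhythm differences 0 for Bmal1 knock out, 0 for salt with night feeding and 8 for feeding on high salt. That fit holds no Bmal1 knock out library at ZT12 or ZT16 and no high salt night fed library at ZT8. With the length score, levels numbered 17 (32) for Bmal1 knock out and 11 for feeding on low salt, rhythms 14 in wild type, and rhythm differences 1 (0) for MR knock out, 19 for salt with night feeding and 17 for salt with day feeding. Quantile normalization gave 5 rhythms in MR knock out and 1 rhythm difference for it. Feeding on low salt gave 1 call with no filter and 2 with cosine and sine terms in all libraries. ZT4 alone, chosen after seeing the data, gave 1 call for Bmal1 knock out. Apart from ZT4 alone, the shares of all rows called under these settings are not given, here or above. These counts therefore have no background beside them.

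Replicate numbers showed no clear pairing of the samples. Of 18 pairs of same-numbered libraries per comparison, 3 to 8 correlated over 0.1 (range -0.565 to 0.561). The values were taken around means of 3 libraries, so this check cannot exclude pairing. The replicate block gave 3 calls in place of 5 for feeding on low salt and stayed within 1.5 times elsewhere.

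Leaving out each replicate number gave 30 to 31 calls for Bmal1 knock out, 11 to 23 for MR knock out, 8 to 13 for salt with night feeding, 5 to 10 with day feeding, 0 to 0 for feeding on low salt, 2 to 14 on high salt and 3 to 20 for the salt effect by feeding. Rhythms numbered 6 to 23 in Bmal1 knock out colons, 0 to 5 with MR knock out, 2 to 7 in wild type, 8 to 13 in low salt night fed, 7 to 13 in low salt day fed, 16 to 25 in high salt night fed and 3 to 13 in high salt day fed colons. Rhythm differences numbered 0 to 15 for Bmal1 knock out, 0 to 0 for MR knock out, 0 to 15 for salt with night feeding, 1 to 5 with day feeding, 7 to 11 for feeding on low salt and 10 to 13 on high salt.

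Reversed for Bmal1 knock out were, as deposited, Gstm7 (-0.43), Gstm2 (-0.46), Gstt2 (-0.34), Mgst2 (-0.44), Sult2b1 (-0.10) and Sult1a1 (-0.48), with the length score Gstt2 (-0.04), Mgst2 (-0.12) and Sult1a1 (-0.03), and at ZT4 alone Gstm7 (-0.06), Gsta2 (0.07), Mgst2 (-0.01), Ugt2b34 (0.06) and Sult1a1 (-0.23). For MR knock out they were Gsto1 (-0.03) and Mgst3 (-0.01) with quantile normalization and Gstp1 (-0.08) and Ugt1a6b (-0.05) with the length score. As deposited, salt with night feeding reversed Gstp1 (-0.15), Gstm3 (-0.23), Gstm1 (-0.24), Mgst2 (-0.01) and Sult2b1 (-0.16), feeding on high salt Gstm2 (0.26), Gstt2 (0.18), Mgst2 (0.15), Sult2b1 (0.13) and Sult1c2 (0.20), and the salt effect by feeding Gstz1 (0.18) and Gstm2 (0.19).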
